A study of Homo sapiens with 18 samples.

Results

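The knockdown of TRIM24 in LNCaP-abl cells was examined by comparing the 3 arrays of LNCaP-abl transfected with siRNA against TRIM24 (siTRIM24) with the 3 arrays of LNCaP-abl transfected with control siRNA (siControl). These 6 arrays were taken from the 18 of the series by the cell line, the transfection and the treatment named in the sample labels. LNCaP is an established human prostate cancer cell line that responds to androgen, and LNCaP-abl is a derivative of it that proliferates without androgen. All 6 LNCaP-abl arrays carry total RNA of cells transfected for 48 h and given the ethanol vehicle for 24 h, so neither group received dihydrotestosterone (DHT). The other 12 arrays hold LNCaP with siControl or siTRIM24, each with vehicle or with 10 nM DHT for 24 h, 3 arrays per group. They serve here as the comparator and share no array with the LNCaP-abl contrast. How many siRNAs were used, their sequences and the culture medium of LNCaP-abl were not stated in the labels. Nor did these say that the replicates of a group were grown apart, so that the p-values cover only array-to-array spread, which can be technical.

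TRIM24 is a chromatin reader whose PHD finger and bromodomain bind histone tails, and it acts as a cofactor of the androgen receptor and of other nuclear receptors. A dividing cell loads the MCM helicase on replication origins in G1, a step called licensing, then activates it and copies its DNA in S phase, and these genes are typically controlled by E2F factors. The genes of mitosis are switched on later, typically through the DREAM and MuvB complexes, which bind cell cycle homology regions, and through NF-Y at CCAAT boxes. Genes induced by interferon carry interferon response elements, which the IRF factors and the complex of STAT proteins with IRF9 bind.

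The 18 arrays had medians of 5.83 to 5.93 (log2), and correlations between arrays within the LNCaP-abl groups were 0.996 to 0.998. Of 13607 genes tested in the LNCaP-abl contrast, 2276 (16.7%) were higher and 3925 (28.8%) lower after knockdown at an adjusted p under 0.05, with a median log2 fold change of -0.011 over all genes. With every array centred on its median these counts were 1607 and 4527, and with quantile normalization 3019 and 3131, so the balance between higher and lower calls depended on the scaling. The falls were larger than the rises: 159 genes fell at least 2-fold and 12 rose at least 2-fold, and 19 fell at least 4-fold while none of the genes tested rose that far. The 3 knockdown arrays lay wholly above the 3 control arrays for 2695 genes (19.8%) and wholly below them for 4384 (32.2%). The log2 ratio of 3' to 5' signal of the GAPDH control probe sets, a measure of RNA integrity and labelling, was 0.54, 0.57 and 0.56 in the control arrays and 0.62, 0.64 and 0.66 in the knockdown arrays, so these groups did not overlap. The corresponding ACTB ratios were 1.95, 1.78 and 1.9 against 1.91, 1.96 and 2.09 and overlapped. With the mean of both ratios as a covariate 1684 genes were higher and 3280 lower. That mean did not overlap between these groups either, so the covariate and the knockdown cannot be fully told apart.

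TRIM24 itself read 9.44, 9.60 and 9.55 in the control arrays and 7.45, 7.55 and 7.35 in the knockdown arrays. All knockdown arrays lay far below all control arrays, and the mean signal fell by 2.08 ± 0.05 (SE) on the log2 scale, to 23.6% of control (limma, adjusted p = 2.7e-13). In LNCaP with vehicle it fell by 1.99, and the difference between the lines, -0.09 ± 0.08, did not pass the test (adjusted p = 0.42). Of its 4 probe sets, 2 bright ones fell by about the same amount and the dimmest fell by 0.90, while another dim one stood at 5.55 and 5.62 and did not fall. Its paralogs TRIM28 and TRIM33, which also repress and regulate transcription, stood at -0.11 and -0.05 and did not pass the test; without knockdown replicate 1 TRIM28 passed (-0.14, adjusted p = 0.05). Averaged over its probe sets TRIM24 stood at -1.22.

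To show the control regions that the largest gene groups have in common, RefSeq promoter windows (GRCh38.p14) from 250 bases before to 50 after the transcription start were searched on both strands. E2F sites were searched as TTTCCCGC, TTTGGCGC, TTTCGCGC and TTTGCCGC, cell cycle homology regions as TTTGAA or its variant form TTCGAA. The boxes that NF-Y binds were searched as CCAAT, and interferon response elements as GAAANNGAA. The letters of different motifs may overlap, and a match describes letters only, not a bound site. The 3 promoters that follow belong to genes of replication that fell, and capitals mark E2F letters. MCM6 encodes a helicase subunit, GINS2 a helicase cofactor and TYMS thymidylate synthase; the stretches are chr2:135876507-135876610 on the minus strand, chr16:85688963-85689000 on the minus strand and chr18:657599-657636 on the plus strand.
MCM6: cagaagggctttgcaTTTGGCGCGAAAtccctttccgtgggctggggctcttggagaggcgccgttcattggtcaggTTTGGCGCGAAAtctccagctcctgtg
GINS2: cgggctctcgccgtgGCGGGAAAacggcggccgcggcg
TYMS: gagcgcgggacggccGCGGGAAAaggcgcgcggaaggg
The next 3 belong to genes of mitosis that fell, and capitals mark cell cycle homology regions and CCAAT boxes. CDC20 activates the anaphase-promoting complex, ASPM organises spindle poles and BUB1 is a kinase of the spindle checkpoint; the stretches are chr1:43358788-43358945 on the plus strand, chr1:197146675-197146818 on the minus strand and chr2:110678042-110678157 on the minus strand.
CDC20: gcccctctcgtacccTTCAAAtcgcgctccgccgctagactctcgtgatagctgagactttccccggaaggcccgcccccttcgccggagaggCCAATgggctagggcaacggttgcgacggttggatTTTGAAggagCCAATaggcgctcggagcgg
ASPM: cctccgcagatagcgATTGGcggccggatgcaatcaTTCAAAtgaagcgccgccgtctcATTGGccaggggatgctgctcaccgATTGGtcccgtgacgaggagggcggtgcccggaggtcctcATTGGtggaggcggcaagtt
BUB1: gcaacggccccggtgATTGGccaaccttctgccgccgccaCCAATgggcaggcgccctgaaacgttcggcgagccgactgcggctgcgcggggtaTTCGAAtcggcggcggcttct
The last pair belongs to interferon-induced genes that rose, and capitals mark interferon response elements. IFIT3 encodes an antiviral RNA-binding factor and ISG15 a ubiquitin-like modifier; the stretches are chr10:89327827-89327899 on the plus strand and chr1:1013369-1013419 on the plus strand.
IFIT3: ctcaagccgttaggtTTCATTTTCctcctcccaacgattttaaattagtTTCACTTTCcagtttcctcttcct
ISG15: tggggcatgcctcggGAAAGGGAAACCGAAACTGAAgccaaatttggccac

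The E2F sites of MCM6 start 152, 148, 90 and 86 bases before the transcription start and form overlapping pairs on opposite strands. In CDC20, 1 cell cycle homology region starts 65 bases and 1 CCAAT box 55 bases before the transcription start, and in ISG15 the 3 interferon response elements overlap. Of all 27305 promoters, 3.33% hold an E2F site, 16.6% a cell cycle homology region, 35.7% a CCAAT box and 8.29% an interferon response element. Among the promoters of the genes tested these shares were 5.05%, 11.2%, 36.6% and 5.84% (10959 promoters). Of 59 promoters of the replication lists described next, 33.9% held an E2F site and 10.2% a cell cycle homology region. Of 57 promoters of the mitosis lists, 8.77% held an E2F site, 68.4% a cell cycle homology region and 71.9% a CCAAT box. Of 31 promoters of interferon effectors, 77.4% held an interferon response element. Among the 126 promoters of genes that fell at least 2-fold, whatever their list, 11.9% held an E2F site, 41.3% a cell cycle homology region and 60.3% a CCAAT box. Of 5800 promoters of genes that were not called, 4.28%, 10.3% and 35.5% did. CCAAT boxes were not particular to falls. They were held by 81.8% of 22 promoters of the ER folding list, most of whose tested members rose. In the glycolysis list, most of whose tested members fell, 26.3% of 19 promoters held one.

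**Figure D1:**
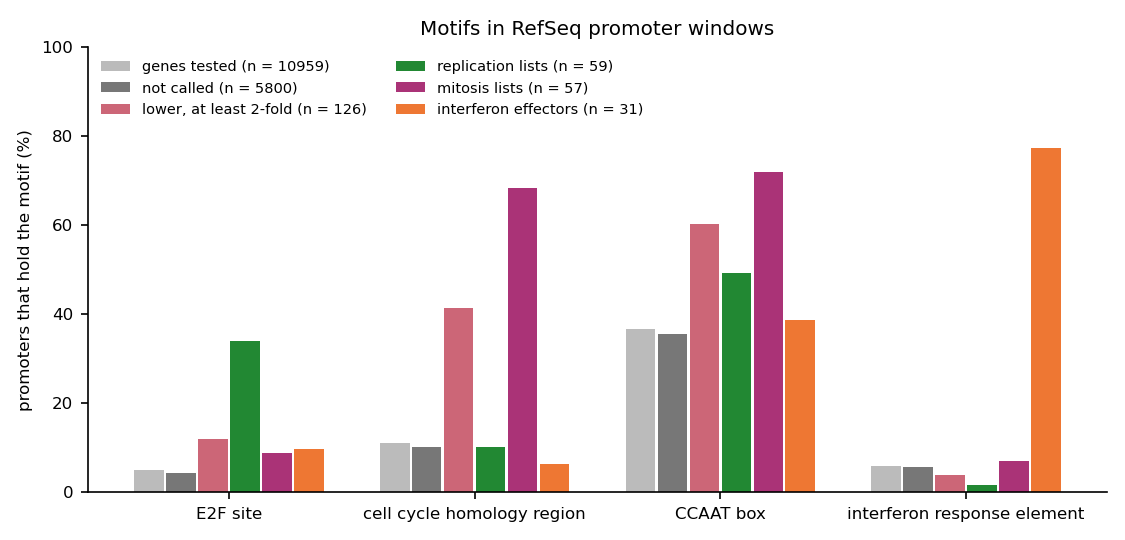
Share of promoter windows (percent, vertical axis) that hold each of the 4 motifs at least once, for 6 sets of genes with their number of promoters in the legend. E2F sites were most frequent in the replication lists (33.9%), cell cycle homology regions in the mitosis lists (68.4%) and interferon response elements in the interferon effectors (77.4%).

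Genes of cell division made up most of the large falls. The 15 lists of cell cycle genes, from origin licensing to chromatin inheritance, hold 241 genes that were tested: 202 fell, 4 rose and 35 did not pass the test. Over all genes tested in LNCaP-abl 28.8% fell and 16.7% rose. The cell cycle lists account for 89 of the 159 genes that fell at least 2-fold and for 17 of the 19 that fell at least 4-fold. In LNCaP with vehicle 120 of the same 241 genes were called, 89 lower and 31 higher, where 38.5% of all genes tested were called, 2792 higher and 2445 lower. By a test of the difference itself 189 of the 241 had a lower change in LNCaP-abl than in LNCaP and 4 a higher one; over all genes 19.9% had a lower and 8.58% a higher value in that test. Of the 202 genes that fell in LNCaP-abl, 176 had a lower change there than in LNCaP, 3 a higher one and 23 did not pass that test. These 202 were picked by the LNCaP-abl values that the test reuses, which favours a lower change. Of these 176, 24 had a control mean below the filter level of 5.88 in LNCaP with vehicle, and 152 were at or above it. A fall from below that level can be hard to read. Of the 241 genes 24 had a LNCaP-abl knockdown mean below that level and 2 a LNCaP-abl control mean below it. The filter asked only for 3 arrays at that level, so genes could pass through the LNCaP-abl control arrays alone. MCM10, SPC25 and BRIP1 had a mean above it in that group only, at 6.98, 7.52 and 7.20. Such genes could be counted as falls but hardly as rises, and how many there were was not examined. Changes of such dim genes may be compressed on these arrays, which was not tested. The medians of the lists ran from -1.65 for the passenger complex and shugoshins (3 genes tested) to -0.26 for the anaphase-promoting complex and mitotic exit. Each gene was read from its brightest probe set. Averaging all probe sets of a gene instead moved the value of 40 of the 208 called genes named here by over 1.5 times, 36 of them to a smaller change.

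**Figure D2:**
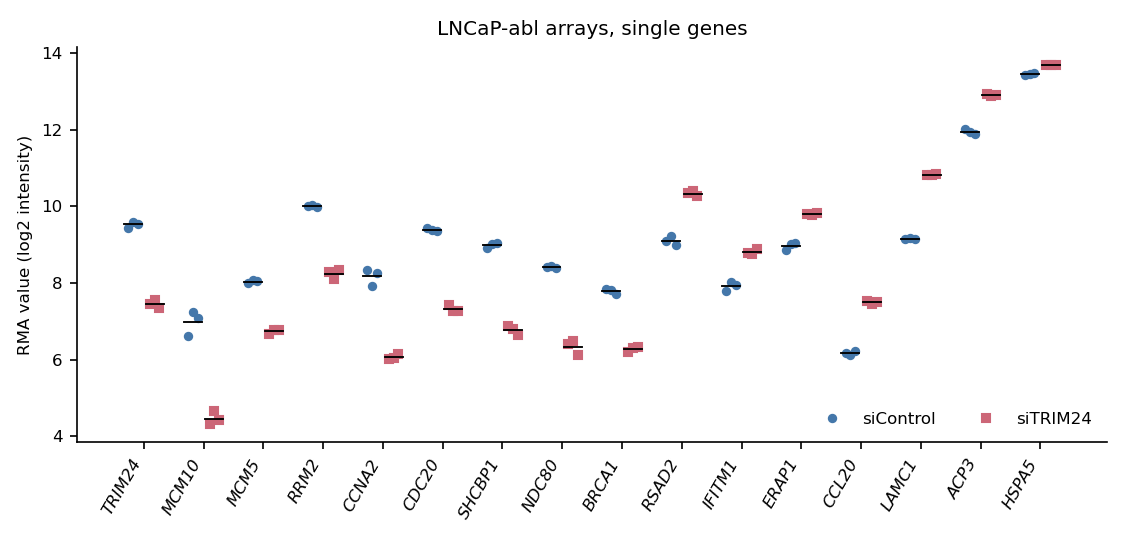
RMA values (log2 intensity, vertical axis) of 16 genes in the 3 siControl (circles) and 3 siTRIM24 (squares) arrays of LNCaP-abl, with group means as black lines. The groups do not overlap for any of the 16 genes, and MCM10 shows the widest gap, from a control mean of 6.98 to 4.47.

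Of the 14 origin licensing genes tested 13 fell, with a median of -0.71. All 6 subunits of the MCM2-7 helicase, which unwinds DNA at the fork, were among them. MCM5 read 7.99, 8.07 and 8.04 in the control arrays and 6.66, 6.76 and 6.78 after knockdown, a fall by 1.30 ± 0.06 (limma, adjusted p = 3.8e-11). MCM4 read 8.46, 8.44 and 8.45 against 7.19, 7.35 and 7.12 and fell by 1.23. For both genes every knockdown array lay over 1 log2 unit below every control array. The other subunits fell less far, MCM2 by 0.97, MCM3 by 0.89, MCM7 by 0.67 and MCM6 by 0.58. CDC6, which recruits the helicase to the origin, read 7.06, 7.34 and 7.17 in control and 5.96, 5.73 and 5.71 in knockdown arrays and had the largest fall of the list, 1.39 ± 0.10 (adjusted p = 1.4e-08). CDT1, its partner in loading, fell by 0.76, and GMNN (geminin), which inhibits CDT1, by 0.56. Within the origin recognition complex the subunits differed in size of change. ORC6 read 8.87, 9.42 and 9.18 against 8.20, 8.39 and 8.29 and fell by 0.87, whereas ORC3, the largest of the other falls, fell by 0.20 and ORC4 stood at 0.03. In LNCaP with vehicle the 6 helicase subunits stood between 0.03 and 0.15, and the difference between the lines passed the test for each of them.

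Of the 10 genes of origin firing 9 fell, with a median of -0.85. MCM10, which joins the helicase as the origin fires, had the largest fall of all genes tested. Its values were 6.63, 7.24 and 7.09 in the control arrays and 4.32, 4.66 and 4.42 in the knockdown arrays. All knockdown values lay below the level of 5.88 that served as a filter, and the fall was 2.52 ± 0.17 (adjusted p = 6.9e-09). Its other probe sets fell by 1.97 and 0.62. The GINS subunits, which clamp the active helicase, fell by similar amounts, GINS1 by 0.85, GINS2 by 1.16 and GINS3 by 0.85. CDC45, the third part of the active helicase, read 6.62, 7.09 and 6.98 against 6.16, 6.04 and 5.86 and fell by 0.88 ± 0.11 (adjusted p = 1.1e-05). The kinase CDC7 and its activator DBF4, which trigger firing, fell by 0.83 and 1.10. TICRR stood at -0.17 and did not pass the test, but passed without knockdown replicate 2 (-0.23, adjusted p = 0.045). In LNCaP with vehicle GINS1 went the other way, 0.54, and the difference between the lines was -1.39 ± 0.11 (adjusted p = 4.6e-07). Averaged over its probe sets GINS2 stood at -0.45.

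At the replication fork 21 of 28 genes fell and 1 rose, with a median of -0.42. WDHD1, which ties the helicase to the polymerases, fell most: it read 6.60, 7.01 and 6.91 in control and 5.62, 5.83 and 5.13 in knockdown arrays, 1.31 ± 0.18 lower (adjusted p = 2.5e-05). PCNA, the sliding clamp, read 11.59, 11.64 and 11.73 against 10.81, 10.79 and 10.87 and fell by 0.83 ± 0.05. These groups were far apart relative to the spread between their arrays. In the clamp loader RFC some subunits fell, RFC2 by 0.68, RFC3 by 0.97 and RFC4 by 0.72, while RFC5 depended on the probe set: its brightest stood at 0.03, whereas its other probe sets stood at -0.995 and -0.70 and the average of all at -0.56 (adjusted p = 1.4e-07). Among the polymerases the primase subunits fell, PRIM1 by 0.76 and PRIM2 by 0.78, and so did accessory subunits, POLE2 by 0.98 and POLD3 by 0.59. The catalytic subunits differed: POLA1 of polymerase alpha fell by 0.36, while POLD1 and POLE stood at 0.01 and -0.07. FEN1, the flap nuclease of lagging-strand synthesis, fell by 0.88 in LNCaP-abl and rose by 0.48 in LNCaP with vehicle (difference -1.36 ± 0.07, adjusted p = 4.9e-09). POLE3, a histone-fold subunit of polymerase epsilon, was the member called higher, at 0.15, and lost the call without knockdown replicate 1 (0.10, adjusted p = 0.076). Averaged probe sets put RFC3 at -0.60 and POLD3 at -0.28.

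Nucleotide supply fell with replication: 12 of 15 genes fell and the other 3 did not pass, with a median of -0.46. RRM2, the regulated subunit of ribonucleotide reductase, read 10.01, 10.05 and 9.98 in control and 8.28, 8.11 and 8.34 in knockdown arrays and fell by 1.77 ± 0.06 (adjusted p = 3.6e-12). Its partner RRM1, which is not degraded each cycle, fell by 0.87. TYMS read 10.64, 10.68 and 10.70 against 9.23, 9.09 and 9.26 and fell by 1.48. TK1, the thymidine kinase of the salvage pathway, fell by 1.46. Each of these genes had non-overlapping groups. In de novo purine synthesis ATIC fell by 1.26 in LNCaP-abl and by 1.42 in LNCaP, while PAICS fell by 0.22 and GART stood at 0.07.

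**Figure D3:**
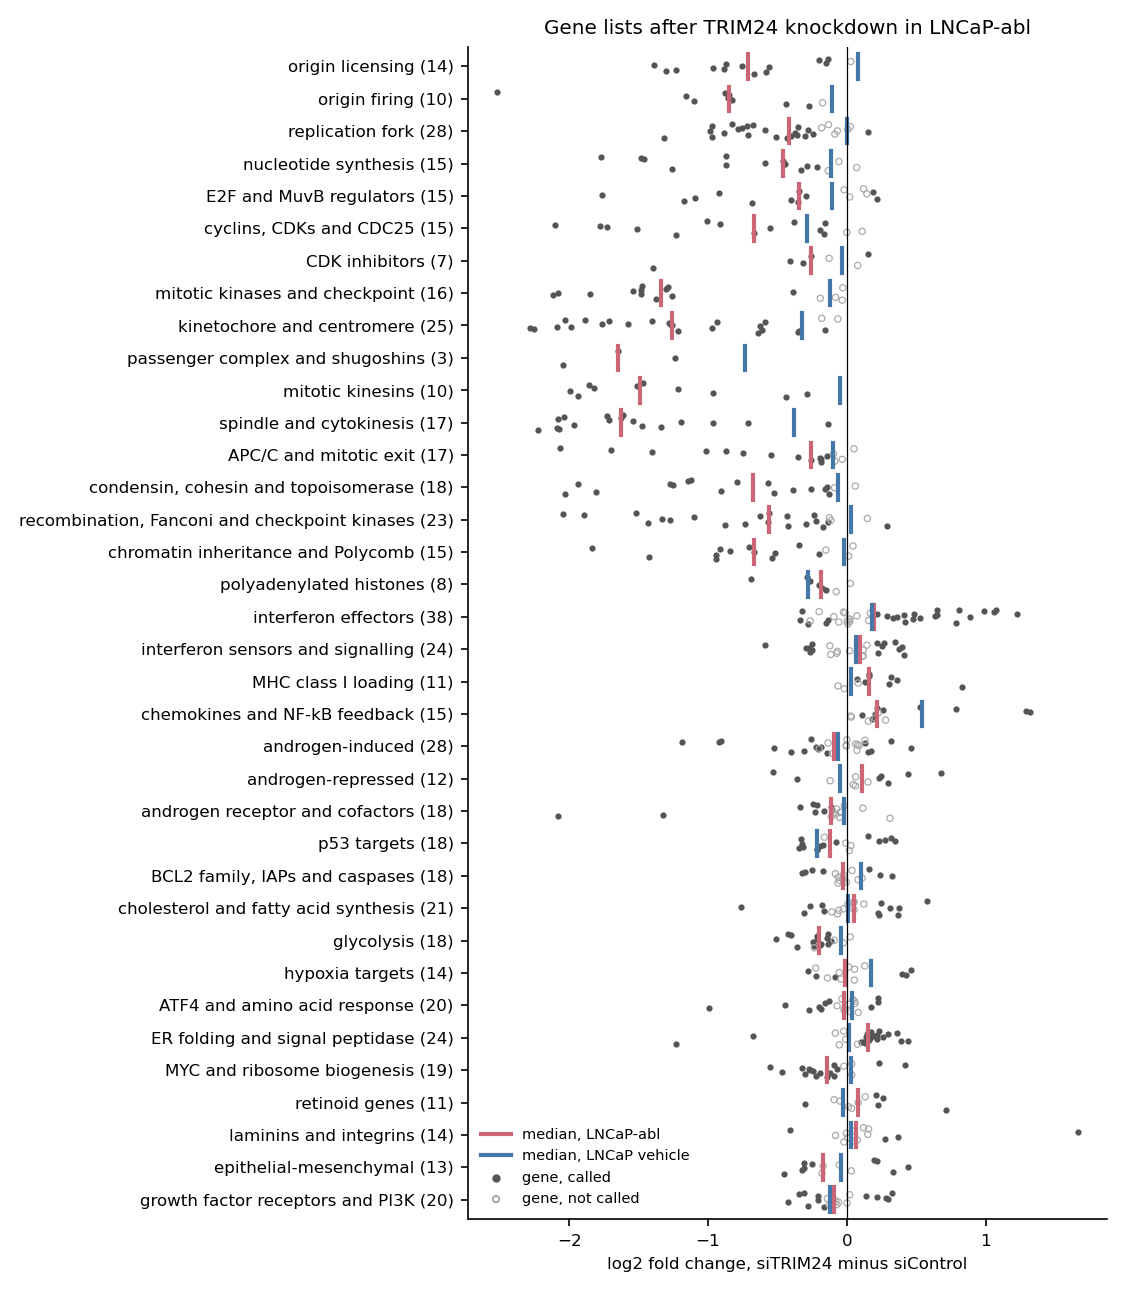
Log2 fold change in LNCaP-abl (horizontal axis, siTRIM24 minus siControl) of each tested member of 36 gene lists, filled where the adjusted p was under 0.05, with list medians for LNCaP-abl and for LNCaP with vehicle as vertical bars and the number tested in brackets. The mitosis lists lie farthest left, with medians between -1.65 and -1.26 in LNCaP-abl, while the interferon, chemokine and ER folding lists lie to the right of 0.

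The regulators of these programmes moved unevenly. Among the 15 E2F and MuvB regulators tested 9 fell and 2 rose, with a median of -0.35. E2F8, a late repressor of the E2F family that is itself an E2F target, read 6.94, 7.03 and 7.07 in control and 5.17, 5.38 and 5.19 in knockdown arrays and fell by 1.77 ± 0.14 (adjusted p = 6.1e-08). FOXM1, the activator of late cell cycle genes, read 7.29, 7.56 and 7.20 against 6.08, 6.33 and 6.13 and fell by 1.17 ± 0.09. The groups did not overlap for either gene. MYBL2, the MYB protein that turns MuvB into an activator, fell by 0.40. The pocket proteins p107 and p130, which hold the repressive complexes, moved in opposite directions: RBL1 (p107) fell by 1.09 and RBL2 (p130) rose by 0.22. E2F4, the partner of p130 in DREAM, rose by 0.19. RBL2 lost its call without control replicate 2 (0.21, adjusted p = 0.051) or knockdown replicate 3 (0.20, adjusted p = 0.057), and E2F4 without control replicate 3 (0.13, adjusted p = 0.095), knockdown replicate 2 (0.18, adjusted p = 0.052) or knockdown replicate 3 (0.17, adjusted p = 0.055). Among the activators E2F3 fell by 0.35, while E2F1 and E2F2 stood at 0.12 and -0.02 and RB1 at 0.02, and none of these passed.

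Of 15 cyclins, cyclin-dependent kinases and CDC25 phosphatases 13 fell, with a median of -0.67. The mitotic cyclins fell most. CCNA2 (cyclin A2) read 8.34, 7.93 and 8.26 in the control arrays and 6.01, 6.05 and 6.15 in the knockdown arrays, a fall by 2.11 ± 0.11 (adjusted p = 3.2e-10). Control array 2 was the lowest of its group and still lay over 1 log2 unit above every knockdown array. CCNB1 and CCNB2 fell by 1.77 and 1.72. CDK1, their kinase, read 10.25, 10.32 and 10.30 against 8.80, 8.82 and 8.73 and fell by 1.51 ± 0.05, whereas CDK2, CDK4 and CDK6 stood at -0.19, 0.11 and 0.00. CCND1 (cyclin D1) fell in both lines, by 1.01 in LNCaP-abl and by 1.25 in LNCaP. CDC25C, which activates CDK1, fell by 1.23 and CDC25A by 0.67. Among the 7 CDK inhibitors CDKN1A (p21) was the only one to rise, by 0.15 ± 0.04, and CDKN1B (p27) fell by 0.26. CDKN3, a phosphatase listed with them that peaks in mitosis, fell by 1.40. With averaged probe sets CCNB2 stood at -0.59, and the most variable probe set of CDC25A at -1.15.

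In mitosis 12 of 16 kinases and checkpoint genes fell, with a median of -1.34. TTK, the kinase that starts the spindle checkpoint, read 7.88, 8.01 and 8.05 in control and 6.05, 5.70 and 5.95 in knockdown arrays and fell by 2.08 ± 0.09 (adjusted p = 3.6e-11). PBK, a kinase of mitotic cells, read 10.61, 10.71 and 10.59 against 8.57, 8.50 and 8.50 and fell by 2.11 ± 0.05, and its groups were as far apart. The Aurora kinases fell, AURKA by 1.48 and AURKB by 1.29, as did checkpoint genes, BUB1 by 1.48, BUB1B by 1.54 and MAD2L1 by 1.38. NEK2, a centrosome kinase, fell by 1.85, and PLK4, which starts centriole duplication, by 1.30. WEE1, which holds CDK1 inactive, stood at -0.08 and did not pass. PLK1 was represented by a probe set near the filter level that read 5.98, 5.86 and 6.01 and 5.86, 5.86 and 6.04, and its groups overlapped.

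Of 25 kinetochore and centromere genes 23 fell, with a median of -1.26. The 4 subunits of the NDC80 complex, which grips microtubules, all fell. SPC25 read 7.45, 7.65 and 7.48 in control and 5.12, 5.19 and 5.42 in knockdown arrays and fell by 2.28 ± 0.14 (adjusted p = 3.1e-09). NDC80 read 8.43, 8.45 and 8.39 against 6.40, 6.49 and 6.12 and fell by 2.09 ± 0.08. NUF2 and SPC24 fell by 1.98 and 0.97. KNL1, the scaffold that docks BUB1, fell by 2.26 ± 0.10 to 6.01, 5.96 and 5.79, from 8.18, 8.20 and 8.15. None of these groups overlapped. The MIS12 complex, which joins NDC80 to the centromere, changed less: DSN1 fell by 0.61 and NSL1 by 0.34, and MIS12 itself stood at -0.16. Among other kinetochore proteins CENPF fell by 2.03, the motor CENPE by 1.89 and CENPU by 1.76, whereas the centromeric histone CENPA and its neighbour CENPC stood at -0.18 and -0.06 and did not pass. HJURP, the chaperone of CENPA, fell by 1.27. Averaging probe sets put CENPF at -1.23, SPC24 at -0.50 and NSL1 at -0.17.

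The genes tested whose proteins build the spindle and divide the cell all fell. These were 17 of 17 spindle and cytokinesis genes, 10 of 10 mitotic kinesins and 3 of 3 members of the passenger complex and shugoshins. Their medians were -1.63, -1.49 and -1.65. Members too dim to be tested went either way: SGO1 averaged 5.26 in control and 5.44 in knockdown arrays and INCENP 5.88 and 5.70. KIF15 averaged 5.77 and 4.93 and KIF18A 5.92 and 4.51. SHCBP1, a midbody protein, read 8.92, 9.03 and 9.05 in control and 6.87, 6.81 and 6.64 in knockdown arrays, a fall by 2.22 ± 0.10 (adjusted p = 4.6e-11). CEP55, which recruits the abscission machinery, read 7.81, 7.97 and 7.93 against 5.91, 5.68 and 5.85 and fell by 2.09 ± 0.12. For both, the knockdown arrays lay far below the control arrays. Spindle assembly genes followed: DLGAP5 fell by 2.08, ASPM by 2.04, TPX2 by 1.61 and PRC1, which bundles the central spindle, by 1.63. ANLN (anillin), ECT2 and RACGAP1, which position and contract the cleavage furrow, fell by 1.96, 1.47 and 1.34. Among the kinesins the largest falls were those of KIF20A, KIF23, KIF4A and KIF14, by 1.99, 1.94, 1.86 and 1.82, and KIFC1 fell by 0.44. BIRC5 (survivin) of the passenger complex read 9.31, 9.40 and 9.36 against 7.70, 7.71 and 7.70 and fell by 1.65 ± 0.05. SGO2, which guards centromeric cohesion, fell by 2.04. MZT1, a component of the microtubule-nucleating ring, fell by 2.07 in LNCaP-abl and by 1.92 in LNCaP; in the spindle and cytokinesis list its difference and 1 other did not pass the test (adjusted p = 0.23 for MZT1). Averaged over their probe sets, ECT2 stood at -0.60 and MZT1 at -1.33.

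For exit from mitosis 13 of 17 genes fell. The fall was uneven between regulators and the core of the anaphase-promoting complex. CDC20 read 9.42, 9.38 and 9.35 in control and 7.44, 7.27 and 7.26 in knockdown arrays and fell by 2.06 ± 0.06 (adjusted p = 1.1e-12). FZR1 (CDH1), the activator that takes over in late mitosis and G1, stood at 0.05 with overlapping groups. The ubiquitin-conjugating enzymes of the complex fell, UBE2C by 1.70 and UBE2S by 0.87, as did securin (PTTG1) by 1.41 and the inhibitor FBXO5 by 1.02. The core subunits named ANAPC or CDC16, CDC23, CDC26 and CDC27 stood between -0.55 and -0.03.

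Condensin and cohesin, ring complexes that compact chromosomes and hold sister chromatids, also differed. Of their list of 18 with topoisomerase II 16 fell. Condensin subunits fell by 1.93 (NCAPG), 1.27 (NCAPG2), 1.25 (NCAPH), 1.15 (SMC4), 1.13 (SMC2), 0.79 (NCAPD2) and 0.57 (NCAPD3), while NCAPH2 stood at 0.06. In cohesin and its regulators SMC1A stood at -0.14, SMC3 at -0.09, RAD21 at -0.26 and STAG1 at -0.16, and STAG2 and WAPL fell by 0.39 and 0.53. Averaged over probe sets STAG2 stood at -0.21 and WAPL at -0.31, and the most variable probe set of STAG2 at -0.11, which did not pass. The S-phase factors that make cohesin hold, ESCO2 and CDCA5 (sororin), fell by 1.81 and 0.91. TOP2A, the topoisomerase of dividing cells, read 8.73, 8.87 and 8.92 against 6.93, 6.67 and 6.83 and fell by 2.03 ± 0.07 (adjusted p = 5.4e-12). Its ubiquitous paralog TOP2B stood at -0.13.

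Of 23 genes of recombination, the Fanconi pathway and the checkpoint kinases 19 fell and 1 rose, with a median of -0.56. BRIP1, a helicase that binds BRCA1, read 7.19, 7.31 and 7.08 in control and 5.21, 5.20 and 5.04 in knockdown arrays and fell by 2.05 ± 0.08 (adjusted p = 7.9e-12). BRCA1 itself read 7.85, 7.83 and 7.72 against 6.21, 6.30 and 6.34 and fell by 1.52 ± 0.08. These groups did not overlap. RAD51AP1, which stimulates strand invasion, fell by 1.89, FANCI by 1.43, the nuclease EXO1 by 1.33 and the helicase BLM by 1.27. BARD1, the partner of BRCA1 in a ubiquitin ligase, fell less, by 0.56. The checkpoint kinase CHEK1 fell by 0.88. ATM, the kinase of double-strand breaks, was the member called higher, at 0.29, while its most variable probe set stood at -0.06. Averaged over its probe sets BRCA1 stood at -0.91.

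Of 15 genes that copy chromatin marks or belong to Polycomb 12 fell, with a median of -0.67. UHRF1, which leads the maintenance methyltransferase to new DNA, read 7.77, 8.05 and 7.86 in control and 6.13, 5.85 and 6.21 in knockdown arrays and fell by 1.83 ± 0.08 (adjusted p = 5.8e-11). DNMT1, that methyltransferase, fell by 0.35 and the de novo enzyme DNMT3A stood at 0.04. EZH2, the Polycomb methyltransferase of dividing cells, fell by 0.84, whereas its paralog EZH1 stood at -0.15 and did not pass, except without control replicate 1 (-0.20, adjusted p = 0.034). HMGB2, a chromatin protein, fell by 1.43. LMNB1 (lamin B1) stood at 0.01 in LNCaP-abl and rose by 0.70 in LNCaP with vehicle (difference -0.69 ± 0.07, adjusted p = 4.9e-06). Of the 8 histone genes tested 6 fell, by 0.69 (H1-10) at most. The averaged probe sets of HMGB2 stood at -0.70.

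The levels behind these changes differed between the lines before knockdown. The median over the spindle and cytokinesis list was 9.36, 9.34 and 9.43 in LNCaP-abl control arrays and 7.99, 7.97 and 7.87 in LNCaP-abl knockdown arrays. In control LNCaP it was 7.41, 7.38 and 7.20 with vehicle and 7.97, 7.81 and 7.93 with DHT. The LNCaP-abl control arrays stood above all others, and the LNCaP-abl knockdown arrays overlapped those of control LNCaP with DHT. For origin licensing the medians were 8.92, 9.09 and 9.01 in LNCaP-abl control and 8.14, 8.30 and 8.23 in LNCaP-abl knockdown arrays, against 8.17, 8.22 and 8.23 in control LNCaP with vehicle. These medians share probe sets and normalization, and the same list members made up both lines' values. Because each array holds RNA of a whole culture, fewer cells in a phase of the cycle and less RNA per cell cannot be told apart.

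**Figure D4:**
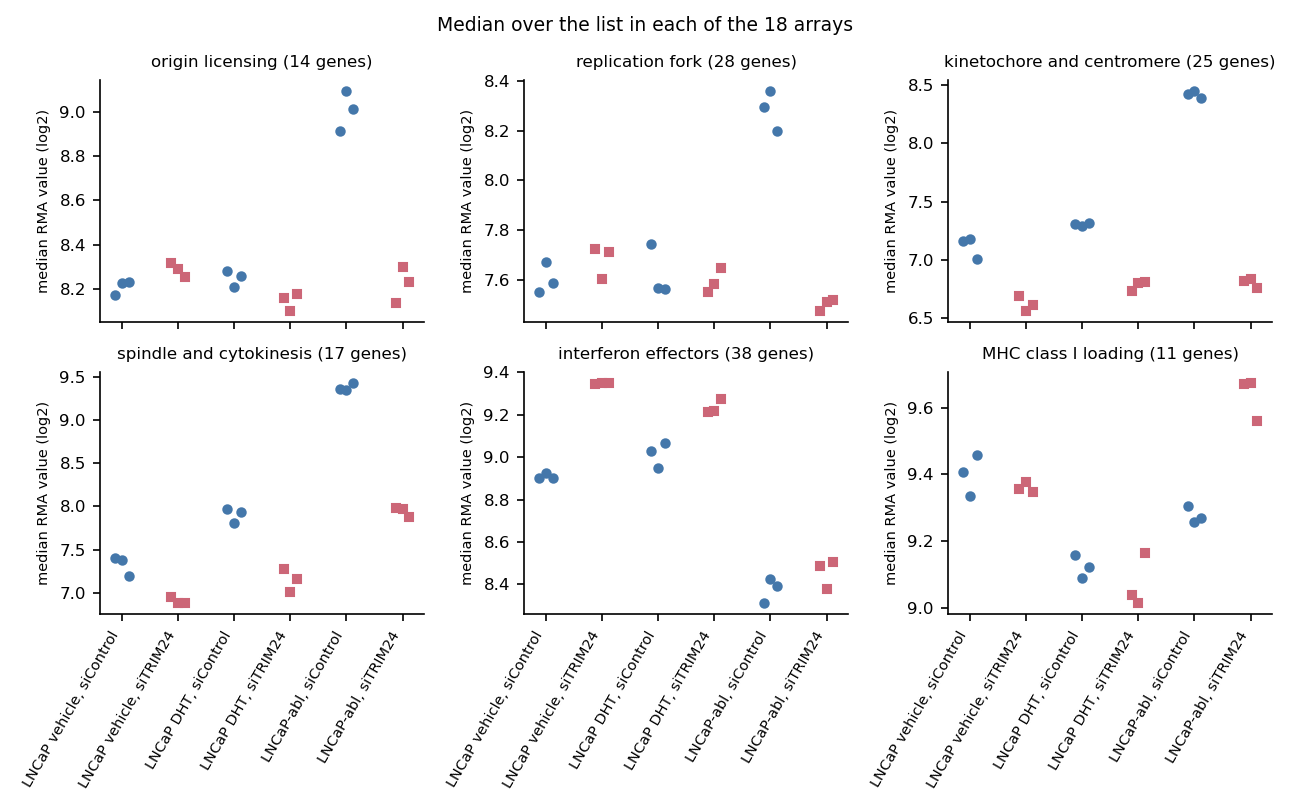
Median RMA value (log2, vertical axes with different ranges) over the tested members of 6 lists in each of the 18 arrays, by group; circles are siControl and squares siTRIM24 arrays. The LNCaP-abl control arrays are the highest for the replication, licensing, kinetochore and spindle lists, and the LNCaP-abl knockdown arrays are the highest for MHC class I loading.

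Antiviral genes rose in part. Of 38 interferon effectors tested 19 rose, 5 fell and 14 did not pass, where 16.7% of all genes tested rose and 28.8% fell. The median was 0.19 in LNCaP-abl and 0.18 in LNCaP with vehicle. RSAD2 (viperin), an antiviral enzyme, read 9.09, 9.24 and 8.99 in the control arrays and 10.34, 10.39 and 10.26 in the knockdown arrays and rose by 1.23 ± 0.06 (adjusted p = 6.9e-11). IFIT3 read 10.00, 9.87 and 10.02 against 11.06, 11.03 and 11.03 and rose by 1.08 ± 0.04. OASL and OAS1, which belong to the family that senses double-stranded RNA, rose by 1.06 and 0.99. All knockdown arrays of these genes lay above all control arrays. IFIT1, IFIT2, DDX60, IFI6 and ISG15 rose by 0.65, 0.80, 0.79, 0.65 and 0.49. Other classical members did not follow: MX1, OAS3 and HERC5 stood at -0.01, -0.02 and 0.02, and IFIT5 and EIF2AK2 (PKR) fell by 0.32 and 0.34. Of the 16 promoters of effectors that rose, 81.2% held an interferon response element, and of the 15 that did not rise, 73.3%. The fall of EIF2AK2 was larger with averaged probe sets, -0.63, and with its most variable one, -1.17.

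The lines differed in which effectors rose. IFITM1, a membrane protein that blocks viral entry, read 7.79, 8.02 and 7.96 in control and 8.78, 8.76 and 8.88 in knockdown arrays of LNCaP-abl, 0.89 ± 0.05 higher, against 0.11 in LNCaP with vehicle (difference 0.78 ± 0.07, adjusted p = 1.6e-06). HERC5, the ligase that attaches ISG15, went the other way: it read 9.37, 9.43 and 9.42 and 9.45, 9.35 and 9.46 in LNCaP-abl with overlapping groups, and rose by 0.97 in LNCaP (difference -0.95 ± 0.06, adjusted p = 2.3e-08). Of the 24 sensors and signalling genes 8 rose and 6 fell, and with the 3' to 5' covariate 4 rose. Among all genes tested 16.7% rose and 28.8% fell, so that the share that fell was near that of all genes. The RNA sensor RIGI rose by 0.35, and MAVS, its adaptor, fell by 0.59. IRF9, the DNA-binding part of the STAT complex, rose by 0.41, while IRF3 and IRF7 stood at 0.08 and -0.12. The genes for the interferons IFNB1 and IFNL1 were dim, 5.02 to 5.28 and 6.01 to 6.41, and stood at 0.25 and 0.40, against 0.74 and 0.95 in LNCaP. In LNCaP-abl the call of IFNB1 was lost without control replicate 1 (0.24, adjusted p = 0.068), control replicate 3 (0.20, adjusted p = 0.12), knockdown replicate 1 (0.26, adjusted p = 0.051) or knockdown replicate 2 (0.20, adjusted p = 0.12), and that of IFNL1 without control replicate 3 (0.30, adjusted p = 0.073) or knockdown replicate 2 (0.33, adjusted p = 0.062).

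Genes of antigen presentation rose in LNCaP-abl. Of 11 MHC class I loading genes 8 rose and none fell, where 16.7% of all genes tested rose and 28.8% fell. The median was 0.16 against 0.03 in LNCaP with vehicle. By the test of the difference 5 of the 11 had a higher change in LNCaP-abl, where 8.58% of all genes had. ERAP1, which trims peptides in the endoplasmic reticulum, read 8.87, 9.01 and 9.05 in control and 9.81, 9.77 and 9.84 in knockdown arrays and rose by 0.83 ± 0.06 (adjusted p = 2.1e-08). TAP1, the peptide transporter, read 9.31, 9.26 and 9.27 against 9.67, 9.67 and 9.56 and rose by 0.36 ± 0.04. Neither gene's groups overlapped. HLA-E rose by 0.32, HLA-B and HLA-C by 0.16 each, and B2M, the shared light chain, stood at 0.08; HLA genes are similar in sequence, and their probe sets may share signal. With averaged probe sets ERAP1 stood at 0.23 and still passed the test.

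Of 15 chemokines and NF-κB feedback genes 9 rose and none fell, where 16.7% of all genes tested rose and 28.8% fell. The median was 0.22, below the 0.54 of LNCaP with vehicle. CCL20, which attracts CCR6-bearing leukocytes, read 6.19, 6.12 and 6.22 in control and 7.53, 7.47 and 7.49 in knockdown arrays and rose by 1.32 ± 0.10 (adjusted p = 2.4e-08). CCL5 read 6.93, 6.65 and 6.96 against 8.14, 8.08 and 8.19 and rose by 1.29 ± 0.08. In LNCaP they rose by 1.45 and 1.09, and those differences did not pass the test (adjusted p = 0.52 and 0.22). Of the 9 genes that rose, 6 rose less than in LNCaP by the test of the difference, among them CXCL8 (interleukin 8), by 0.52 against 1.51. NFKB1 stood at 0.03 in LNCaP-abl and rose by 0.54 in LNCaP. With every array centred on its median, 5 of the 15 rose.

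**Figure D5:**
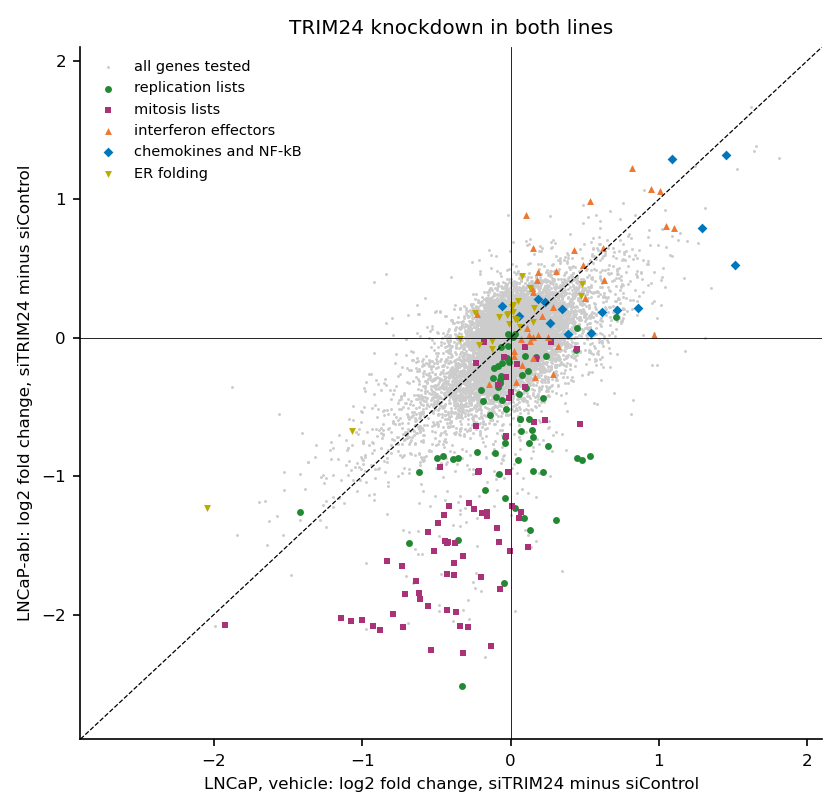
Log2 fold change after TRIM24 knockdown in LNCaP-abl (vertical axis) against LNCaP with vehicle (horizontal axis) for all 13607 genes tested (grey) and 5 groups of lists; the dashed line marks equal change. Most replication and mitosis genes lie below the line, for example MCM5 at -1.30 and 0.09, and some lie on it, such as ORC4 and POLE. Interferon effectors lie on either side of it, and 8 of 15 chemokine and NF-κB genes had a lower change in LNCaP-abl by the test of the difference.

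Protein folding in the endoplasmic reticulum showed small rises across most of its list. Of 24 genes 17 rose and 2 fell, where 16.7% of all genes tested rose and 28.8% fell. The median was 0.15 against 0.01 in LNCaP with vehicle. By the test of the difference 13 of the 24 had a higher change in LNCaP-abl, where 8.58% of all genes had. HSPA5 (BiP), the main chaperone, read 13.42, 13.46 and 13.49 in control and 13.69, 13.68 and 13.69 in knockdown arrays and rose by 0.23 ± 0.04 (adjusted p = 1.7e-04). CRELD2, a stress-induced chaperone, rose by 0.44, DNAJC3 by 0.36 and the lectin chaperones CANX and CALR by 0.22 and 0.17. EIF2AK3 (PERK), a sensor of unfolded proteins that was not in the list, read 10.19, 10.29 and 10.30 against 11.18, 11.27 and 11.23 and rose by 0.97 ± 0.05. XBP1, a transcription factor of the same response, stood at -0.08. The members that fell were PDIA4, a disulfide isomerase, by 0.67, and SPCS3, a signal peptidase subunit, by 1.23; both fell further in LNCaP (-1.07 and -2.05). Downstream of ATF4, 3 of 20 genes rose and 7 fell, which is near the 16.7% and 28.8% of all genes tested. DDIT3 (CHOP) rose by 0.23, ATF4 stood at -0.04 and SLC7A11, the cystine transporter, fell to 50.2% of control. With averaged probe sets EIF2AK3 stood at 0.47 and SPCS3 at -0.49.

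Androgen-regulated genes were examined although both groups were without DHT. Of 28 androgen-induced genes 5 rose and 12 fell, with a median of -0.09; of all genes tested 16.7% rose and 28.8% fell, so that the share that rose was near that of all genes. Of 12 androgen-repressed genes 5 rose and 2 fell. SLC45A3 (prostein) read 8.93, 8.93 and 8.91 in control and 7.70, 7.76 and 7.75 in knockdown arrays and fell by 1.19 ± 0.06 (adjusted p = 9.9e-11). FKBP5, a co-chaperone of steroid receptors, read 9.65, 9.73 and 9.71 against 8.81, 8.87 and 8.68 and fell by 0.91 ± 0.04. ELL2, an elongation factor, fell by 0.92. The groups of all these genes stood apart. KLK3 (PSA) stood at 0.00 from a dim control mean of 5.70, and TMPRSS2 rose by 0.32. Other probe sets of KLK3 stood at 0.16, from a control mean of 7.2, and at 0.22, from 4.77. ACP3 (prostatic acid phosphatase), a secreted product of luminal cells, read 12.01, 11.93 and 11.90 against 12.92, 12.89 and 12.91 and rose by 0.96 ± 0.03, more than in LNCaP (0.49, adjusted p of the difference 5.7e-06). FOLH1 (PSMA) rose by 0.44 in LNCaP-abl and fell by 0.40 in LNCaP (difference 0.84 ± 0.11, adjusted p = 4.0e-05). CAMK2N1, an inhibitor of CaM kinase II that androgen represses, rose by 0.68. Of 18 receptor cofactors tested, TRIM24 included, 9 fell and none rose. HOXB13, a homeobox factor of the prostate, fell by 0.21. The pioneer factor FOXA1 stood at -0.25 with its brightest and at 0.19 with its most variable probe set, so its direction depended on the probe set. SMARCA4 (BRG1), the ATPase of the SWI/SNF remodeller, read 10.60, 10.64 and 10.59 in control and 9.34, 9.30 and 9.21 in knockdown arrays and fell by 1.32 ± 0.04; in LNCaP it fell by 1.63. Averaged probe sets gave smaller falls: SLC45A3 stood at -0.69, FKBP5 at -0.59, ELL2 at -0.58 and SMARCA4 at -0.73.

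Metabolic lists showed small and mixed changes, to be read against 16.7% of all genes higher and 28.8% lower. In glycolysis 14 of 18 genes fell and none rose, with a median of -0.20: PFKP, a phosphofructokinase, fell by 0.51, the glucose transporter SLC2A1 by 0.43 and LDHA by 0.36, while PGK1 stood at -0.03. In ribosome biogenesis 14 of 19 genes fell and 2 rose. ODC1, the enzyme that starts polyamine synthesis, fell by 0.55, SRM by 0.32 and FBL by 0.27, whereas MYC rose by 0.23 and MXD1, an antagonist of MYC, by 0.42. With quantile normalization and with the 3' to 5' covariate 9 of the 19 fell, with averaged probe sets 9 of 18, and with only the compared groups in the model 8 of 19. Of 21 sterol and fatty acid genes 7 rose and 5 fell, with SREBF1 higher by 0.58 and SQLE lower by 0.76. Of 14 hypoxia targets 3 rose and 3 fell. Averaged over probe sets PFKP stood at -0.27 and SREBF1 at 0.38.

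Of 18 targets of p53 5 rose and 9 fell, and of 18 apoptosis genes 3 rose and 4 fell; the apoptosis counts are near the 16.7% and 28.8% of all genes. The death receptors TNFRSF10B and FAS rose by 0.34 and 0.23, while MDM2 stood at -0.16 and GADD45A fell by 0.32. With quantile normalization 4 of the p53 targets fell, and with the 3' to 5' covariate 5. The pro-apoptotic BIK rose by 0.33 and BCL2L11 (BIM) fell by 0.30. Of 11 retinoid genes 4 rose and 1 fell; PLAAT4 (retinoic acid receptor responder 3) rose by 0.72 and RARG by 0.26, and DHRS3, which limits retinoic acid, fell by 0.30. Of 20 growth factor receptors and PI3K genes 5 rose and 7 fell: ERBB3 rose by 0.21 and IGF1R fell by 0.31. Of 13 epithelial and mesenchymal genes 4 rose and 5 fell, with CDH1 (E-cadherin) higher by 0.20. Averaged over probe sets TNFRSF10B stood at 0.23, BCL2L11 at -0.12, RARG at 0.16, ERBB3 at 0.12, IGF1R at -0.11 and CDH1 at 0.37.

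Most of the largest rises were shared with LNCaP. Of the 12 genes that rose at least 2-fold in LNCaP-abl all 12 were called higher in LNCaP with vehicle, where 20.5% of all genes tested were, and 1 of them rose further in LNCaP-abl by the test of the difference. LAMC1, the gamma chain of laminins, rose most: it read 9.15, 9.18 and 9.16 in control and 10.82, 10.81 and 10.85 in knockdown arrays, 1.67 ± 0.03 higher (adjusted p = 6.8e-15). Another probe set of LAMC1 stood at 9.97 and 10.09 in LNCaP-abl, and its change in LNCaP with vehicle was -0.20. The size of the LAMC1 rise, and its direction in LNCaP, thus depended on the probe set. MPZL3, an immunoglobulin-like membrane protein, read 8.03, 8.07 and 8.02 against 9.45, 9.40 and 9.44 and rose by 1.39 ± 0.04. GOLT1B, a Golgi transport protein, rose by 1.35 and, with another probe set, by 0.23. DPY19L1, a C-mannosyltransferase, rose by 1.30, CLDN12 (claudin 12) by 1.24, SLC7A2, a transporter of cationic amino acids, by 1.22 and the calcium-binding protein S100P by 1.07. In LNCaP the rises of MPZL3, GOLT1B, DPY19L1 and SLC7A2 were larger, 1.65, 1.64, 1.81 and 1.53, each by the test of the difference, which with averaged probe sets held for DPY19L1 and not for the other 3. Averaged probe sets put LAMC1 at 0.90, MPZL3 at 0.50, GOLT1B at 0.79 and SLC7A2 at 0.59.

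Outside the lists 65 genes fell at least 2-fold; those named here, ZNF367 and DTL apart, were chosen after their values were seen. ZNF367, a zinc finger protein, read 7.07, 7.29 and 7.17 in control and 4.98, 4.90 and 4.73 in knockdown arrays and fell by 2.31 ± 0.13 (adjusted p = 1.2e-09). DTL, which directs the degradation of CDT1 in S phase, fell by 1.98 ± 0.11, with groups that did not overlap. RNASEH2A, a subunit of the nuclease that removes ribonucleotides from DNA, fell by 1.28 and APOBEC3B, a cytidine deaminase, by 1.47, and both stood near 0 or above in LNCaP with vehicle, 0.00 and 0.17. RUNX2, a transcription factor, fell by 1.35, and in LNCaP by 0.39. Of the 65 genes 38 had a lower change in LNCaP-abl by the test of the difference, 6 fell further in LNCaP and 21 did not pass that test. EIF3J, a factor of translation initiation, was among the latter, at -1.11 in LNCaP-abl and -1.04 in LNCaP, while TIMP2, an inhibitor of metalloproteinases, fell by 1.29 in LNCaP-abl and by 1.58 in LNCaP. Of the 89 cell cycle genes that fell at least 2-fold, 86 had a lower change in LNCaP-abl by the test of the difference. Over all genes tested 19.9% had. The 65 and the 89 genes were picked by their fall in LNCaP-abl, and the test reuses those values. A lower change in LNCaP-abl was therefore favoured in advance. Averaged over its probe sets TIMP2 stood at -0.84.

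The comparison of the lines was also made over all genes. The knockdown change differed between LNCaP-abl and LNCaP with vehicle for 3880 genes, 1168 higher and 2712 lower in LNCaP-abl. Against LNCaP with DHT it differed for 2800 genes, 770 (5.66%) higher and 2030 (14.9%) lower. In LNCaP-abl and LNCaP with vehicle together 1137 genes rose in both lines and 1804 fell in both, while 103 rose in LNCaP-abl and fell in LNCaP and 311 did the reverse. MCM10 had the largest negative difference, -2.19 ± 0.24 (adjusted p = 8.6e-06), and ZNF367, SHCBP1, DEPDC1B and DTL followed at -2.13, -2.09, -2.03 and -2.01. In control LNCaP with vehicle these genes were dim, with means of 4.62, 4.91, 5.78, 4.23 and 5.10. All lay below the filter level of 5.88, so that a fall there may be compressed, which was not tested. DTL stood at 0.03 in LNCaP with vehicle and DEPDC1B rose by 0.35, so neither fell there. TOP2A, at 6.92 in control LNCaP, was the only one of the 10 largest negative differences above the filter level, at -1.75. Of the 10 largest positive differences 9 went with a fall in LNCaP. CXCR4, the chemokine receptor, was dim in LNCaP-abl, 3.64, 3.58 and 3.74 and 3.64, 3.84 and 3.89, and fell by 0.80 in LNCaP. ADRA1A, the alpha-1A adrenoceptor, read 8.52, 8.62 and 8.65 in LNCaP-abl control and 9.45, 9.57 and 9.43 in knockdown arrays, 0.89 ± 0.11 higher (adjusted p = 7.7e-06). In LNCaP with vehicle it averaged 4.53 and 4.51, below the filter level, so that its difference between the lines rests on signal in LNCaP-abl alone. MAF, a transcription factor, stood at 0.46 from a control mean of 3.39 and fell by 0.84 in LNCaP; averaged over its 6 probe sets it stood at 0.15 in LNCaP-abl (adjusted p = 0.098). The averaged probe sets of ADRA1A stood at 0.50.

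Markers of the cell type were examined in the same arrays. Luminal markers were well above the filter level, with control means of 11.94 for KRT18, 12.72 for EPCAM and 10.50 for HOXB13, and of 7 tested 3 rose and 3 fell. None of 7 basal markers and 3 of 11 neuroendocrine markers were bright enough to be tested. Of 6 fibroblast genes tested 1 rose and 1 fell, and of 3 leukocyte and endothelial markers none was called. Over all genes tested 16.7% rose and 28.8% fell, and the fibroblast counts are near those shares. KRT5 and the neuroendocrine marker CHGA read 5.63 and 5.68 and 4.87 and 5.07 on average in control and knockdown arrays, and the leukocyte marker PTPRC 3.32 and 3.48.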

How the data were processed

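Total RNA of 18 samples (6 groups of 3) was measured on 1-colour oligonucleotide arrays. The deposited values are log2 intensities per probe set from RMA, the method that the submitters' processing notes name; its version is not given in the sources used here. They were used as deposited. Gene names came from GEO's platform annotation, and each gene was represented by its probe set with the highest mean. Genes whose 3rd highest array reached 5.88, the median of the table, were kept, which left 13607. A group-means model over all 18 arrays was fitted with limma 3.58.1 in R 4.3.3 and tested on simulated data; p-values were adjusted by Benjamini and Hochberg, and genes with an adjusted p under 0.05 were called. The difference between lines is the interaction contrast. The number of arrays limits the precision. Members and lists were chosen with earlier results of these data known. Named genes were TRIM24, the 15 largest rises and falls among called genes whose groups did not overlap, the 10 largest differences between lines in each direction, list members by role, and genes said to be chosen after their values were seen. Alternatives changed the filter, probe set choice, scaling, variance model, array weights, arrays fitted, threshold, replicate block, 3' to 5' covariate and each LNCaP-abl array.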

Additional observations from a re-analysis of the deposited data

Results flagged for a closer look

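The effect of the knockdown differed between the lines by the interaction test for 3880 genes against LNCaP with vehicle and for 2800 against LNCaP with DHT. The 10 largest negative differences (LNCaP-abl minus LNCaP with vehicle, log2) were those of MCM10 (-2.19), ZNF367 (-2.13), SHCBP1 (-2.09), DEPDC1B (-2.03), DTL (-2.01), SPC25 (-1.96), CEP55 (-1.80), KIF14 (-1.75), TOP2A (-1.75) and TTK (-1.74). Of these genes MCM10, SHCBP1, SPC25, CEP55, KIF14, TOP2A and TTK belong to the cell cycle lists. In control LNCaP with vehicle all of the 10 except TOP2A had means below the filter level of 5.88. A fall in LNCaP may be compressed there, which was not tested. DEPDC1B rose in LNCaP with vehicle, by 0.35, and DTL stood at 0.03.

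The 10 largest positive differences were those of NAALADL2 (1.52), PSLNR (1.33), MAF (1.30), CP (1.01), CYP4F30P (0.95), CXCR4 (0.94), ADRA1A (0.91), FLRT3 (0.87), ELFN2 (0.86) and DIO1 (0.86). NAALADL2, a peptidase-like gene, stood at -0.35 in LNCaP-abl and -1.88 in LNCaP, and CP (ceruloplasmin), a copper-binding ferroxidase, at -0.55 and -1.56, so that both fell in both lines. PSLNR rose by 0.40 in LNCaP-abl and stood at -0.92 in LNCaP, where it fell. DIO1, a deiodinase of thyroid hormone, stood at 0.16 in LNCaP-abl, did not pass the test there, and fell in LNCaP (-0.69). FLRT3, a membrane protein of cell adhesion, stood at 0.24 in LNCaP-abl and -0.63 in LNCaP, where it was dim (means of 4.37 and 3.73) and where its other probe set stood at 0.21. ELFN2 stood at 0.29 in LNCaP-abl, a call lost without control replicate 1 (0.28, adjusted p = 0.056), control replicate 2 (0.22, adjusted p = 0.12) or knockdown replicate 1 (0.23, adjusted p = 0.1), and fell by 0.58 in LNCaP. In LNCaP-abl control arrays NAALADL2, MAF, CP, CYP4F30P, CXCR4 and ELFN2 had means below the filter level of 5.88, so that their differences rest on dim signal in that line. In LNCaP with vehicle FLRT3 and ADRA1A were below that level, with ADRA1A at 4.53 in control arrays.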

How the results depend on the processing

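The counts of genes higher (2276) and lower (3925) in LNCaP-abl, and of genes whose change differed from LNCaP with vehicle (3880) or with DHT (2800), stayed within 1.5 times under each alternative except the threshold: at an adjusted p under 0.01 they were 1480, 3146, 2216 and 1586, as a stricter threshold gives. Leaving out 1 LNCaP-abl array at a time gave 1952 to 2177 higher and 3494 to 3831 lower genes, and 3288 to 3899 and 2367 to 2736 differences. The replicate numbers did not pair the samples: deviations of same-numbered control and knockdown arrays correlated at -0.07, 0.07 and 0.01, and with the number as a replicate block the counts were 2215, 3853, 3701 and 2617. Of the 260 genes named in the text, 227 kept their side of the threshold and, where called, their direction in LNCaP-abl under all 18 alternatives they could be tested in. 19 lost the call under at least 1: B2M, CDC26, CDK2, CP, E2F4, ELFN2, EPCAM, FOXA1, IFNB1, IFNL1, MAF, MIS12, POLE3, RAD21, RBL2, SMC1A, STAG1, STAG2 and TOP2B. With the most variable probe set ATM (-0.057) and FOXA1 (0.194) changed sign, and RFC5, not called with its brightest probe set, fell with it (-0.995) and with averaged probe sets (-0.556). Of the named genes that were not called, 12 passed the test in the same direction under at least 1 alternative. For the difference from LNCaP with vehicle, 42 of the named genes lost the call under at least 1 alternative. That difference changed sign with the most variable probe set for CAMK2N1 (-0.297), FOXA1 (0.079), RFC5 (-1.118) and TNFRSF10B (0.099), and with averaged probe sets for CDC23 (-0.002), RFC5 (-0.559), SLC7A2 (0.054) and TNFRSF10B (0.049). Why probe sets of a gene disagree was not tested. Changes of genes near the filter level of 5.88 may be compressed, which was not tested, so that dim genes limit what the arrays can show.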
